A study of Homo sapiens with 6 samples.

Results

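The genes described here belong to the developmental transcription factor families expressed in the human uveal melanoma line 92.1, followed after 24 h with the histone deacetylase inhibitor LBH589. They are the HOXA, HOXB, HOXC and HOXD genes and the SOX, FOX, GATA, TBX, PAX, LHX, ISL, sine oculis (SIX4 and relatives), NKX, POU, DLX, MSX, MEIS and PBX genes, taken by the start of the gene symbol, with SOX10, PAX3 and FOXM1 left out. The rule reads gene symbols and no measured value, but it was set with earlier results of these data known. Whether a symbol was listed went with its FPKM, as described below. The rule takes 202 protein-coding symbols of the GENCODE 29 annotation, and 101 of them were listed in the data, among 12010 genes in all. A member was tested where its mean over the 6 libraries was at least 0.5 FPKM (fragments per kilobase of transcript and per mapped fragment of its library), which held for 90 members among 11520 tested genes. FOXRED1, FOXRED2, PAXIP1, PAXBP1 and PAXX carry the prefix without being transcription factors of these families, and they are counted but named as such.

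The libraries were made from total RNA of 92.1, 1 established human line of uveal melanoma, the cancer of pigment cells inside the eye. Solvent (DMSO) was given to 3 samples and LBH589 (panobinostat) at 0.1 µM to the other 3, for 24 h in both groups. The labels name no other genetic change, no second line and no separate cultures or batches. All p-values therefore measure the spread between these samples of 1 line, which may be technical.

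Histone deacetylases strip acetyl groups off histones and further proteins, and an inhibitor such as LBH589 lets acetylation build up. The families followed here bind DNA through a homeodomain (HOX, LHX, ISL, sine oculis, NKX, POU, DLX, MSX, MEIS and PBX), a paired domain (PAX), an HMG box (SOX), a forkhead domain (FOX), zinc fingers (GATA) or a T-box (TBX). In the embryo they set position and cell identity, and in a differentiated cell most of their promoters are held silent, many of them by Polycomb complexes on CpG-rich DNA. HOX genes lie in 4 clusters and are numbered by paralogue group along each cluster, in the order in which they are used from head to tail. In pigment cells SOX10 and PAX3 are the best known members of such families.

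Summed FPKM was between 397174 and 422630 per DMSO library and between 355148 and 367222 per LBH589 library, and mitochondrially encoded genes held 35.8 to 45.7% and 35.1 to 37.3% of it. The files hold no counts, so depth is unknown and no counting interval can be given. Every listed transcript had a mean of at least 0.5 FPKM in 1 group or the other (lowest 0.5002), so a gene near 0 in 1 group is listed only if it was higher in the other. The pigment cell markers MITF, MLANA, PMEL, TYR, TYRP1, DCT and S100B were all listed, and their summed FPKM was 2476 to 2582 in DMSO and 720 to 775 in LBH589. TYRP1 made up most of that sum, with means of 1796 and 500 FPKM. By the test described below, MITF, MLANA, TYR, TYRP1 and DCT fell. PMEL (means 274 and 200 FPKM, limma adjusted p = 0.239) and S100B (1.24 and 2.14 FPKM, limma adjusted p = 0.125) were not called. Of 23 markers of epithelium, fibroblasts, endothelium, leukocytes, red cells, neurons and muscle, 5 were listed, and none of the endothelial, leukocyte or muscle markers was among them. SNAP25, a synaptic protein, moved from 1.84 to 2.70 FPKM in DMSO to 12.1 to 15.6 in LBH589, and the fibroblast genes COL1A1 and LUM summed to 1.47 to 2.52 and 4.24 to 5.55. HBA1 was listed at 0 in the DMSO libraries and at 1.23 to 2.71 FPKM in LBH589, and EPCAM was at 0.190 to 0.452 and 0.692 to 1.12. The part of these shifts in the results was not tested, and in bulk RNA fewer cells of a type and less RNA per cell cannot be told apart.

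The developmental families moved in both directions. With limma on log2(FPKM + 1), adjusted by Benjamini-Hochberg over all tested genes and called at adjusted p below 0.05, 27 of 90 tested members rose (30%) and 25 fell (27.8%). Over all tested genes 27.2% rose, 21.6% fell and 48.8% were called in either direction, against 57.8% of members. All 3 values of 1 group lay beyond all 3 of the other for 52 members (57.8%), the 52 called ones, and for 59.5% of all tested genes. The shares of members in each direction thus lay near those of all genes. The median difference of mean log2(FPKM + 1), LBH589 minus DMSO, was 0.13 over members and 0.08 over all tested genes.

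Most members were expressed at low levels. Their median over the 6 libraries was 2.40 FPKM against 7.02 for all tested genes, and 14 members had a mean of at least 10 FPKM in DMSO and 12 in LBH589. SOX4 was the highest in both groups. On the log2(FPKM + 1) scale, 16 rises and 18 falls reached 2-fold. Among the 52 called members, 8 that rose had a DMSO mean under 0.5 FPKM and 6 that fell had an LBH589 mean under 0.5 FPKM, so that the way transcripts were listed bears on these 14. Without the 5 genes that only share a prefix, 27 of 85 rose and 24 fell.

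**Figure D1:**
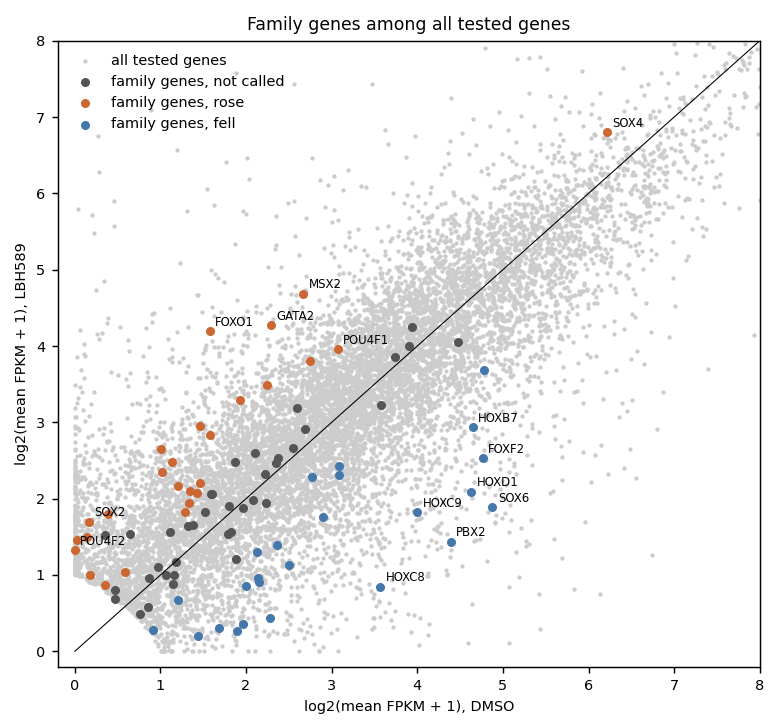
Mean expression of each tested gene in DMSO (x axis) and LBH589 (y axis), as log2(mean FPKM + 1) over 3 libraries each; grey points are all tested genes, coloured points the 90 tested family members, and the line marks equal values. The axes end at 8, which leaves out 147 tested genes, none of them a member; SOX6, PBX2, HOXC8, HOXD1 and FOXF2 lie far under the line and FOXO1, GATA2 and MSX2 far above it.

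**Figure D2:**
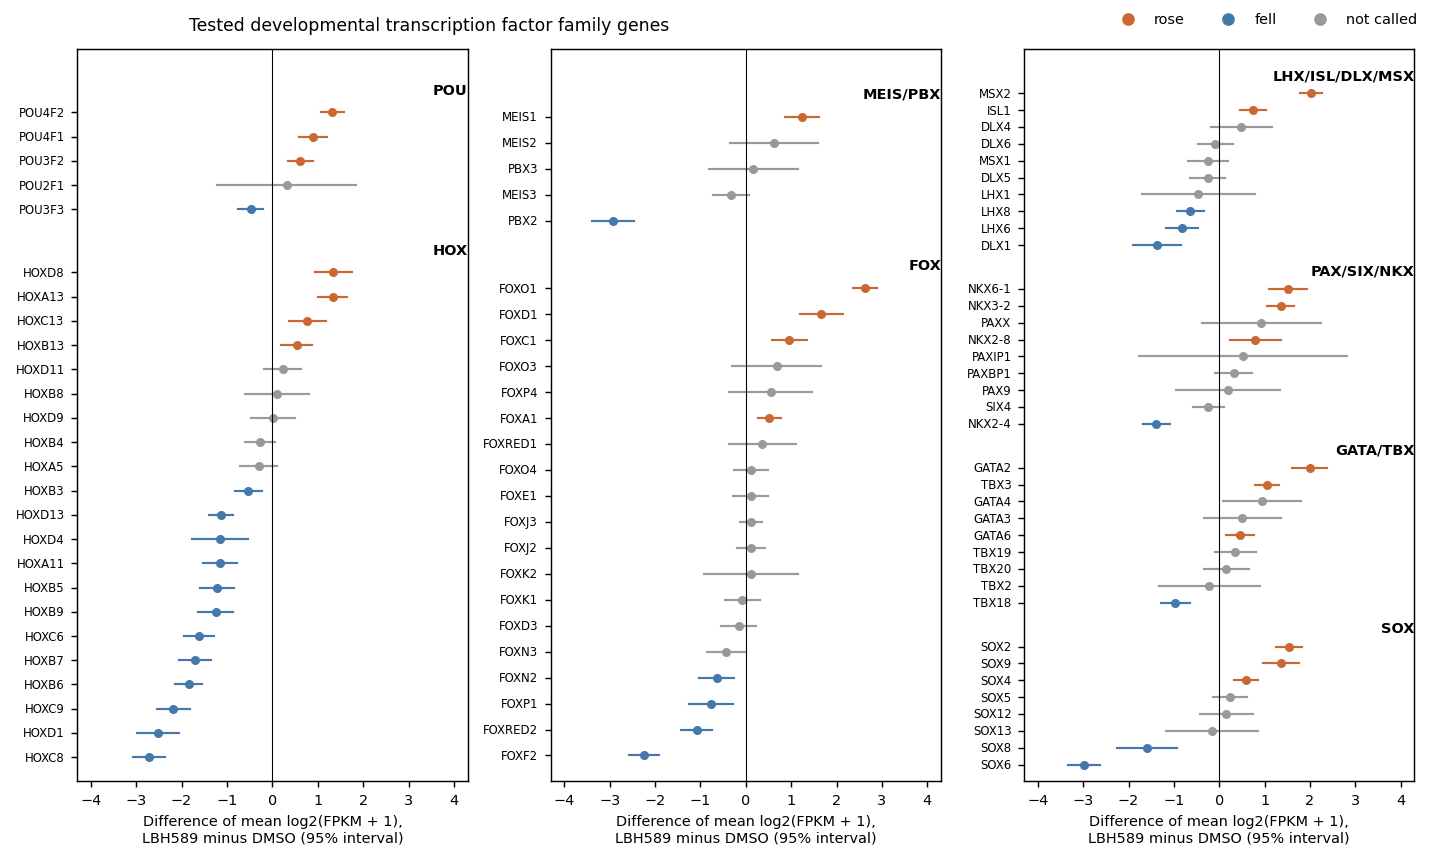
Difference of mean log2(FPKM + 1), LBH589 minus DMSO, for 86 of the tested members by family, with the 95% interval from limma; colours mark members that rose, fell or were not called at adjusted p below 0.05. The HOX panel shows 12 falls, the largest of them for HOXC8, and 3 of the 5 POU genes rose. Of all tested genes 27.2% rose and 21.6% fell.

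HOX genes mostly fell. Of 27 listed HOX genes 22 were tested, and 12 fell, 5 rose and 5 were not called, with a median difference of -0.83. The share that fell was 54.55%, against 21.6% of all tested genes. The falls were 5 of 8 tested HOXB genes, 3 of 4 HOXC, 3 of 6 HOXD and 1 of 4 HOXA genes. By paralogue number, 7 of 11 tested genes of groups 5 to 9 fell and 1 rose, 3 of 5 of groups 1 to 4 fell and 1 rose, and of groups 11 to 13 a total of 3 of 6 rose and 2 fell. Whether these shares differ between clusters or paralogue groups was not tested. After quantile normalization 13 HOX genes fell and 4 rose, beside 2701 falls and 2889 rises among all 11520 tested genes.

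HOXC8, which helps to pattern the thoracic region and limb motor neurons, was at 12.7, 9.66 and 10.3 FPKM in the DMSO libraries and at 0.751, 0.776 and 0.865 in the LBH589 libraries. All 3 LBH589 values lay far under the DMSO values, and mean FPKM was 13.6-fold lower (log2 difference -2.72 ± 0.14 SE, limma adjusted p = 5.06e-05). Its cluster neighbours went the same way. HOXC9, which represses more anterior programmes in thoracic motor neurons, was at 16, 13.3 and 15.7 FPKM in DMSO and 2.88, 2.03 and 2.70 in LBH589. The groups did not overlap (log2 difference -2.18 ± 0.15 SE, limma adjusted p = 0.000107). HOXC6 was at 2.31, 2.69 and 3.16 FPKM in DMSO and 0.154, 0.273 and 0.192 in LBH589, where its transcript HOXC6-201 was listed at 0 in the 3 libraries. It fell by 1.62 on the log2 scale (SE 0.13, limma adjusted p = 0.000229).

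In the HOXB cluster HOXB7 was the most abundant gene. HOXB7, studied in melanoma as an inducer of growth factor genes, was at 26.4, 24.1 and 21.6 FPKM in DMSO and 7.11, 7.43 and 5.47 in LBH589. Its mean was 3.61-fold lower without overlap (log2 difference -1.71 ± 0.14 SE, limma adjusted p = 0.000245). HOXB6, its neighbour in the cluster, was at 3.72, 3.74 and 4.13 FPKM and 0.400, 0.258 and 0.407 (log2 difference -1.84 ± 0.12 SE, limma adjusted p = 9.88e-05). HOXB5, HOXB9 and HOXB3 also fell, by 1.23, 1.25 and 0.53 on the log2 scale. HOXB8 lies between HOXB7 and HOXB9 and was not called, with 3.52, 2.35 and 1.61 FPKM in DMSO and 3.95, 2.46 and 1.86 in LBH589, and HOXB4 was not called either (log2 difference -0.27, adjusted p = 0.158; -0.59 and 0.0192 after quantile normalization). The fall along this cluster was thus not shared by every gene in it, although the difference between neighbours was not tested.

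The HOXD cluster held falls and a rise. HOXD1, the 3′ end of the cluster, was at 29.6, 23.0 and 18.6 FPKM in DMSO and 3.49, 2.67 and 3.59 in LBH589. Its DMSO values were spread more widely than its LBH589 values, and the groups did not overlap (7.30-fold lower mean, log2 difference -2.52 ± 0.19 SE, limma adjusted p = 0.000184). HOXD13, the 5′ end of the cluster and a gene of digit patterning, was at 6.55, 6.26 and 6.59 FPKM and then at 2.52, 2.38 and 2.30. It fell by 1.13 on the log2 scale (SE 0.11, limma adjusted p = 0.00045), and HOXD4 fell by 1.16. HOXD8, between them, went the other way, from 2.77, 2.57 and 3.09 FPKM to 10.8, 7.40 and 8.10, with no overlap (3.12-fold higher mean, log2 difference 1.34 ± 0.17 SE, limma adjusted p = 0.00103). HOXD9 and HOXD11 were not called, with group means of 1.27 and 1.25 FPKM and of 0.390 and 0.610 FPKM.

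The 3 HOXD promoters are shown because genes of 1 cluster moved in opposite directions. Each is the 250 bases before the RefSeq start site (GRCh38.p14, + strand, 5′ to 3′), at chr2:176188418-176188667 for HOXD1, chr2:176129455-176129704 for HOXD8 and chr2:176092471-176092720 for HOXD13. Capitals mark matches on either strand to the GC box GGGCGG, the TATA box TATAAA and the CCAAT box CCAAT.
HOXD1: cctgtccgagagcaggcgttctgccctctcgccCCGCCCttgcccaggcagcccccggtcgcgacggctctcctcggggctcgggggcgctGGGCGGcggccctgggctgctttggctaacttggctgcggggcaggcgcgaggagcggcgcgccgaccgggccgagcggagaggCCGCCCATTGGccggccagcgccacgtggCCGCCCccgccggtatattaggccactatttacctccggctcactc
HOXD8: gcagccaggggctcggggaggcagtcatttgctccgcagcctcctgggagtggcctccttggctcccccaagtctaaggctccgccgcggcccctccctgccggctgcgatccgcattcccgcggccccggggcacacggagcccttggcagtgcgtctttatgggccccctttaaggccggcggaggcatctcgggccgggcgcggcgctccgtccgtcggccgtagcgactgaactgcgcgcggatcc
HOXD13: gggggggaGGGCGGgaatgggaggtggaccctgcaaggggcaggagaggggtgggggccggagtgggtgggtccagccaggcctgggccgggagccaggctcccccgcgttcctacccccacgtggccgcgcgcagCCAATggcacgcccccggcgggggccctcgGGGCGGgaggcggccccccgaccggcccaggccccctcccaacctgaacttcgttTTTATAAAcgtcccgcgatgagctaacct
HOXD1 holds 4 GC boxes and 1 CCAAT box directly beside a GC box, and HOXD13 holds 2 GC boxes, 1 CCAAT box and a stretch that matches the TATA box on both strands. HOXD8 holds none of these letters in this window. All 3 are rich in CpG, with 31 in HOXD1, 28 in HOXD8 and 21 in HOXD13.

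Among the other HOX rises were genes of the last paralogue group, which were chosen for mention after their values were seen. HOXA13, a gene of the distal limb and hindgut, was at 0.952, 1.13 and 0.994 FPKM and then at 4.42, 4.3 and 3.56 (log2 difference 1.33 ± 0.13 SE, limma adjusted p = 0.00046). HOXC13, a hair follicle gene, rose from 2.02, 1.29 and 1.30 FPKM to 2.92, 3.22 and 3.75 (log2 difference 0.77, adjusted p = 0.0104). HOXB13, a prostate and tail bud gene, was at 1.67, 1.46 and 1.21 FPKM and at 2.67, 2.22 and 2.74. Its rise of 0.54 (adjusted p = 0.0200) did not hold after quantile normalization (adjusted p = 0.0542), with the replicate number as a block (0.0619) or without DMSO replicate 2 or 3 or LBH589 replicate 1 or 3 (0.05 to 0.0673).

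HOXA11, a uterine and limb gene, fell from 3.41 to 0.954 FPKM (log2 difference -1.16, adjusted p = 0.00137), and HOXA5 had means of 3.71 and 2.85 FPKM without a call. HOXA3, HOXA6, HOXC4, HOXC11 and HOXD3 were listed but under the level tested. All 5 had lower means in LBH589, and HOXA6, HOXC4 and HOXC11 had no overlap between the groups. Each was listed through a DMSO mean of at least 0.5 FPKM, with a mean over the 6 libraries under that level. Their direction was thus fixed in advance and adds nothing to the count of falls. HOXC4 and HOXC6 have the same start in RefSeq, and HOX clusters carry antisense transcripts. Whether counting used strand is not given in the sources used here, so reads of overlapping HOX genes cannot be told apart.

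**Figure D3:**
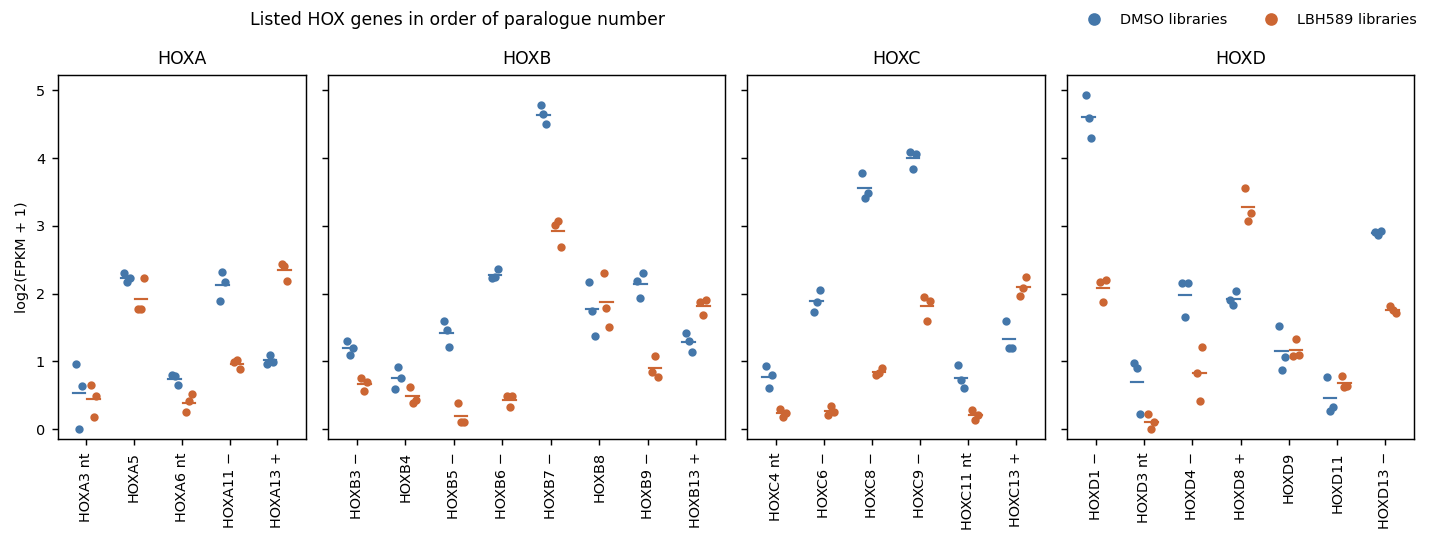
log2(FPKM + 1) of 26 listed HOX genes in each library, by cluster and in order of paralogue number; dots are libraries, bars group means, + a rise, − a fall and nt a gene that was not tested. DMSO dots lie above LBH589 dots for HOXB5 to HOXB7, HOXC6 to HOXC9 and HOXD1, and under them for HOXA13, HOXB13, HOXC13 and HOXD8.

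Members of the TALE class of homeodomain proteins, MEIS and PBX, bind DNA together with HOX proteins. Of 6 listed and tested genes, 2 rose (33.3%), 1 fell (16.7%) and 3 were not called. Over all tested genes 27.2% rose and 21.6% fell. PBX2 was the most abundant of them in DMSO, at 24.8, 15 and 20.0 FPKM, and was at 1.79, 1.6 and 1.72 in LBH589. Its LBH589 values were tightly grouped and far under DMSO (11.7-fold lower mean, log2 difference -2.93 ± 0.19 SE, limma adjusted p = 0.000103). PBX2 has a near-identical pseudogene copy, so its FPKM is uncertain where reads could be split between them.

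MEIS1, a HOX cofactor in blood and limb cells, was at 1.82, 1.99 and 2.15 FPKM and then at 5.46, 5.52 and 7.36 (log2 difference 1.24 ± 0.15 SE, limma adjusted p = 0.00103). The 4 listed MEIS1 transcripts were all higher in LBH589. MEIS3, the most abundant TALE gene of this group in LBH589, was at 12.8, 8.63 and 11.2 FPKM and 8.83, 7.51 and 8.85, and was not called (log2 difference -0.33, adjusted p = 0.148). Without DMSO replicate 2 it passed (log2 difference -0.47, adjusted p = 0.0473), as did its most abundant transcript (-0.82, adjusted p = 0.0186). MEIS2 was at 3.69, 0.527 and 1.79 FPKM in DMSO and 3.07, 3.22 and 3.25 in LBH589, and passed only without DMSO replicate 1 (log2 difference 1.02, adjusted p = 0.0348). PBX3 was at 1.61, 1.79 and 2.21 FPKM in DMSO and 4.72, 0.870 and 2.08 in LBH589. Its LBH589 values spanned the DMSO values (log2 difference 0.16, adjusted p = 0.764).

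SOX genes held the largest fall among tested members on the log2(FPKM + 1) scale, that of SOX6, and a rise from near 0. The ratio of means fell further than that of SOX6 for HOXC8, HOXC6, PBX2, HOXB5 and HOXB6. Of 8 listed and tested SOX genes, 3 rose (37.5%), 2 fell (25%) and 3 were not called, against 27.2% and 21.6% of all tested genes. SOX6, a SoxD factor without an activation domain of its own, was at 31.4, 23.5 and 30.2 FPKM in DMSO and 2.6, 2.98 and 2.54 in LBH589. The groups were far apart (10.5-fold lower mean, log2 difference -2.98 ± 0.14 SE, limma adjusted p = 4.09e-05), and its 3 listed transcripts were all lower. SOX8, a SoxE factor like SOX9 and SOX10, was at 4.22, 2.48 and 2.0 FPKM and then at 0.257, 0 and 0.596 (log2 difference -1.59 ± 0.27 SE, limma adjusted p = 0.00407).

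SOX9 rose while SOX8 fell. SOX9, a SoxE factor of cartilage, neural crest and sex determination, was at 1.68, 0.936 and 0.982 FPKM in DMSO and 4.62, 4.75 and 4.40 in LBH589, without overlap (3.83-fold higher mean, log2 difference 1.36 ± 0.17 SE, limma adjusted p = 0.00101). SOX2, a SoxB factor of pluripotent and neural progenitor cells, was at 0.138, 0.156 and 0.0758 FPKM and then at 2.49, 2.05 and 2.20. Mean FPKM was 18.2-fold higher from a level near 0 (log2 difference 1.53 ± 0.12 SE, limma adjusted p = 0.00017). SOX4, a SoxC factor found in many progenitor and tumour cells, was at 82.1, 66.1 and 72.1 FPKM and at 108, 112 and 112 (log2 difference 0.59 ± 0.11 SE, limma adjusted p = 0.00494). It was the most abundant member in both groups, and its change was 1 of the smaller called ones.

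SOX5, SOX12 and SOX13 were not called. SOX5, the partner of SOX6 in the SoxD group, had sums of 4.44, 5.28 and 6.61 FPKM in DMSO and 6.91, 6.21 and 6.49 in LBH589 (log2 difference 0.24, adjusted p = 0.249). Its transcripts differed among themselves: SOX5-221, the most abundant, had means of 4.74 and 2.90 FPKM, while SOX5-207 had 0.292 and 1.93 and SOX5-214 had 0.408 and 1.70. By SOX5-221 alone the difference was -0.77, also without a call (adjusted p = 0.337). SOX12 was at 7.13, 3.78 and 3.70 FPKM in DMSO and between 4.80 and 5.63 in LBH589, and passed only without DMSO replicate 1 (log2 difference 0.42, adjusted p = 0.0374).

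FOX genes moved in both directions. Of 21 listed genes 19 were tested, of which 4 rose, 4 fell and 11 were not called. The share was 21.05% in each direction, near the 27.2% and 21.6% of all tested genes. FOXO1, a forkhead factor under insulin and PI3K control, had the largest rise of all tested members on the log2(FPKM + 1) scale. It was at 1.99, 2.0 and 1.97 FPKM in DMSO and 17.8, 18.2 and 16 in LBH589, with tight groups that did not overlap (8.73-fold higher mean, log2 difference 2.62 ± 0.11 SE, limma adjusted p = 2.89e-05). The related FOXO3 and FOXO4 were not called, with means of 5.03 and 8.09 FPKM and of 4.09 and 4.53 FPKM. Within FOXO3 the transcript FOXO3-201 had means of 0.222 and 2.95 FPKM, and the more abundant FOXO3-202 had 4.81 and 5.13.

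FOXF2, a mesenchymal forkhead gene, was the counterpart of FOXO1 in direction. It was at 27.3, 24.6 and 26.7 FPKM in DMSO and 4.59, 5.74 and 4.0 in LBH589 (5.48-fold lower mean, log2 difference -2.24 ± 0.14 SE, limma adjusted p = 8.19e-05). FOXD1, a gene of the kidney stroma and retina, rose from 1.56, 0.684 and 0.803 FPKM to 5.49, 5.58 and 4.70 (log2 difference 1.66 ± 0.19 SE, limma adjusted p = 0.000908). FOXC1, a gene of the anterior eye segment, rose from 1.5, 1.04 and 1.38 FPKM to 4.16, 3.17 and 3.15 (log2 difference 0.96 ± 0.16 SE, limma adjusted p = 0.00325). In neither gene did the groups overlap. FOXA1, an endodermal pioneer factor, stayed under 1 FPKM, at 0.257 to 0.296 in DMSO and 0.758 to 0.893 in LBH589, and its call (log2 difference 0.51, adjusted p = 0.00812) did not hold after quantile normalization (0.18, adjusted p = 0.225).

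FOXP1 and FOXN2 fell by 0.77 and 0.65 on the log2 scale (adjusted p = 0.0199 and 0.0154). FOXP1 held 5 listed transcripts that did not go 1 way: FOXP1-212 had a mean of 3.15 FPKM in DMSO and was listed at 0 in LBH589, while FOXP1-214 had means of 0.887 and 2.49 FPKM. By its most abundant transcript the difference was 0.87 (adjusted p = 0.197), and the fall was lost without LBH589 replicate 1 (0.0524) or 2 (0.0624). The fall of FOXN2 was lost by its most abundant transcript (adjusted p = 0.0842) and without LBH589 replicate 1 (0.0564). FOXRED2, an oxidoreductase of the endoplasmic reticulum and not a forkhead factor, fell from 29.3, 21.5 and 28.5 FPKM to 12.0, 11.2 and 12.4, the fourth fall counted here (log2 difference -1.08 ± 0.14 SE, limma adjusted p = 0.00133). FOXJ3, FOXJ2, FOXO4, FOXK1, FOXE1 and FOXD3 had log2 differences between -0.16 and 0.11 without a call. FOXD3, a neural crest gene, was at 0.933 to 1.6 FPKM in DMSO and 0.819 to 1.22 in LBH589. FOXN3 was not called (log2 difference -0.43, adjusted p = 0.0971), but fell without DMSO replicate 1 (-0.57, adjusted p = 0.0398). FOXK2, FOXP4 and FOXRED1 had overlapping groups and were not called, and FOXN4 and FOXP2 were under the level tested.

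The promoters of SOX2, FOXO1 and PBX2 are shown as those of a gene near 0 that rose, of the largest rise on the log2(FPKM + 1) scale and of a large fall. They are the 250 bases before the RefSeq start (GRCh38.p14, 5′ to 3′ on the strand of the gene), at chr3:181711675-181711924 on the + strand for SOX2, chr13:40666642-40666891 on the − strand for FOXO1 and chr6:32190203-32190452 on the − strand for PBX2, with the same motifs in capitals.
SOX2: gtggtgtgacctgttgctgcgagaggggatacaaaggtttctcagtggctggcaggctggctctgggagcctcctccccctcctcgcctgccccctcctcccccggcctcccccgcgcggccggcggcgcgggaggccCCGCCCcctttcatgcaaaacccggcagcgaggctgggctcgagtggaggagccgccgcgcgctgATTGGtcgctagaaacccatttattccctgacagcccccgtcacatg
FOXO1: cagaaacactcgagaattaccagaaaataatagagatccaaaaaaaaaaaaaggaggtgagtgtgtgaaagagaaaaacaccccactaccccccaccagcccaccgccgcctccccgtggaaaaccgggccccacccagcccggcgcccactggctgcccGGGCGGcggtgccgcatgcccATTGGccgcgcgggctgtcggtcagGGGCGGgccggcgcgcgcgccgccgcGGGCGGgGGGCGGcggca
PBX2: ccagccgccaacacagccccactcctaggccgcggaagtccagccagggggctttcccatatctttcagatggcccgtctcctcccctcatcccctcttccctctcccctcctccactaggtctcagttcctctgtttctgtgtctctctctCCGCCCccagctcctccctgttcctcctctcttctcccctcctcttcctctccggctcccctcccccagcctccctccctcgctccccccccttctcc
FOXO1 holds 4 GC boxes, 1 CCAAT box and 27 CpG, SOX2 holds 1 GC box, 1 CCAAT box and 20 CpG, and PBX2 holds 1 GC box and 7 CpG in a window rich in C and T. A RefSeq window was found for 70 of 101 members, and 56 of them had a single window. Among these 56, the GC box was found in 73.2%, the CCAAT box in 57.1% and the TATA box in 1.79%, with a median of 23.5 CpG. Over all 22114 genes with a single window of that length the shares were 40.9, 33.4 and 11.8%, with a median of 9 CpG. These genes were not limited to the 12010 listed in the data, while every member was listed. What this adds to the contrast was not tested. GC boxes were found in 55.6% of the 18 members that rose, 72.7% of the 11 that fell and 84.2% of the 19 that were not called. CCAAT boxes were found in 66.7, 72.7 and 31.6% of these, a difference that was not tested, and the median number of CpG was 22.5, 20 and 26. High CpG content was thus common to members of either direction and to those without a call. A match to these letters is a description and not a binding site.

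GATA and T-box genes held 9 tested members, of which 3 rose (33.3%), 1 fell (11.1%) and 5 were not called. Among all tested genes 27.2% rose and 21.6% fell. GATA2, a factor of blood stem cells, endothelium and mast cells, was at 4.90, 3.66 and 3.14 FPKM in DMSO and 17.2, 19.5 and 18.3 in LBH589. The groups did not overlap (4.70-fold higher mean, log2 difference 1.99 ± 0.16 SE, limma adjusted p = 0.000194), and its 3 listed transcripts were all higher. TBX3, a T-box repressor studied in melanoma and the limb, was at 6.20, 5.25 and 5.70 FPKM and then at 12.8, 12.6 and 13.3 (log2 difference 1.06 ± 0.11 SE, limma adjusted p = 0.000486). Most of the rise was in TBX3-202, with means of 3.29 and 9.73 FPKM, while TBX3-201 had 2.42 and 3.21.

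TBX18, a factor of the heart and ureter mesenchyme, fell from 3.69, 4.08 and 4.61 FPKM to 1.48, 1.63 and 1.76 (log2 difference -0.96 ± 0.13 SE, limma adjusted p = 0.00161). GATA6, an endoderm and heart factor, was at 0.393 to 0.587 FPKM and 0.895 to 1.24, and its call (log2 difference 0.45, adjusted p = 0.0252) was lost after quantile normalization (0.17, adjusted p = 0.302), with the replicate block (0.0625) and without DMSO replicate 2 or 3 or LBH589 replicate 1 or 2 (0.0582 to 0.0701). GATA4 was at 1.32, 0 and 0.384 FPKM and at 2.43, 2.21 and 1.08, and passed only without DMSO replicate 1 (log2 difference 1.27, adjusted p = 0.0201). GATA3 was at 2.47 to 2.89 FPKM in DMSO and 6.32, 1.96 and 5.39 in LBH589, so that LBH589 replicate 2 stood under all DMSO values. Without that library it rose by 0.90 on the log2 scale (adjusted p = 0.00981). TBX2, TBX19 and TBX20 were not called, and TBX2, a repressor of senescence genes in melanoma, ranged from 0 to 1.87 FPKM in DMSO and from 0 to 1.17 in LBH589.

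**Figure D4:**
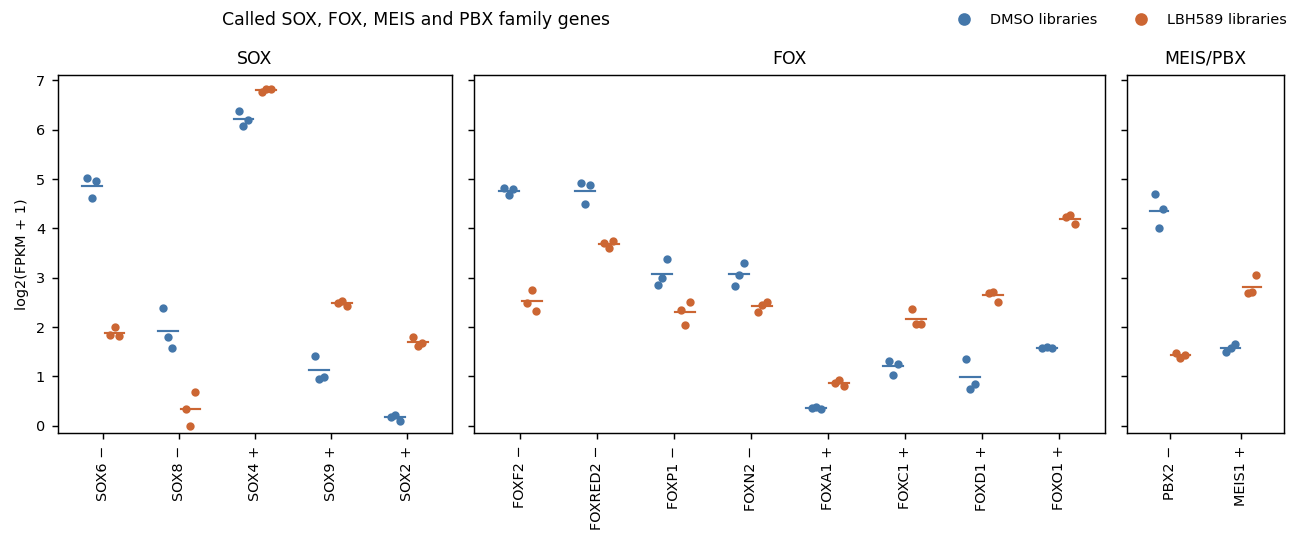
log2(FPKM + 1) in each library for called SOX, FOX, MEIS and PBX members, ordered within a panel from the largest fall to the largest rise; dots are libraries, bars group means, + a rise and − a fall. FOXRED2 is not a forkhead factor. DMSO and LBH589 dots do not overlap for any gene shown, and SOX4 lies far above the other genes.

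NKX genes mostly rose from low levels. Of 11 tested PAX, sine oculis and NKX symbols, 5 rose (45.45%), 1 fell (9.09%) and 5 were not called. Among the rises were 4 of 5 tested NKX genes (80%). Over all tested genes 27.2% rose and 21.6% fell. NKX3-2, a chondrocyte and gut mesenchyme gene, was at 0.166, 0.0810 and 0.0692 FPKM in DMSO and 1.63, 1.76 and 2.11 in LBH589 (17.4-fold higher mean, log2 difference 1.36 ± 0.12 SE, limma adjusted p = 0.000319). NKX6-1, a factor of beta cells and motor neurons, rose from 2.0, 1.2 and 2.03 FPKM to 6.14, 6.76 and 7.35, without overlap (log2 difference 1.51 ± 0.17 SE, limma adjusted p = 0.000777). By its most abundant transcript it did not pass (log2 difference 1.06, adjusted p = 0.0883). Both genes had DMSO values at or under about 2 FPKM.

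NKX2-4, a hypothalamic gene of the same class, fell from 4.69, 4.81 and 4.55 FPKM to 1.26, 1.30 and 0.985 (3.96-fold lower mean, log2 difference -1.38 ± 0.13 SE, limma adjusted p = 0.000323). It was the most abundant NKX gene in DMSO, and the only tested NKX gene that fell. NKX2-8 was at 0.316, 0 and 0.0779 FPKM and at 0.434, 1.10 and 1.46, a rise (log2 difference 0.80, adjusted p = 0.0314). The call was lost after quantile normalization (0.128), with the replicate block (0.0788) and without DMSO replicate 2 or 3 or LBH589 replicate 2 or 3 (0.0800 to 0.0947). In the fit by the most abundant transcript its adjusted p was 0.0549, although NKX2-8 has 1 listed transcript and its difference there was the same. SIX4, a sine oculis factor that acts with EYA proteins, was not called (log2 difference -0.24, adjusted p = 0.205).

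PAX9, the only true PAX gene listed beside PAX3, was at 0.636, 2.13 and 2.04 FPKM and 0.495, 2.55 and 3.39 and was not called. PAXBP1, PAXIP1 and PAXX are not PAX factors, and none was called. PAXBP1 was the most abundant of the symbols with that prefix, at 11.6 to 17.5 FPKM in DMSO and 16.8 to 19.9 in LBH589, and passed without DMSO replicate 1 (log2 difference 0.46, adjusted p = 0.0377). PAXX was at 0 in LBH589 replicate 2 and at 3.33 and 2.29 FPKM in the other LBH589 libraries, and passed without that library (log2 difference 1.56, adjusted p = 0.0028). NKX1-2 was under the level tested.

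Among LIM homeobox, DLX and MSX genes, 10 were tested, 2 rose (20%), 3 fell (30%) and 5 were not called. The shares of all tested genes were 27.2% and 21.6%. MSX2, a repressor of the neural crest and limb ectoderm that BMP signalling induces, was at 4.88, 5.58 and 5.57 FPKM in DMSO and 24.3, 24.5 and 25.2 in LBH589. Both groups were tight and far apart (4.62-fold higher mean, log2 difference 2.02 ± 0.10 SE, limma adjusted p = 4.27e-05). MSX1 was not called (log2 difference -0.24, adjusted p = 0.316; -0.49 and 0.0486 after quantile normalization). ISL1, a LIM homeobox factor of motor neurons and heart progenitors, rose from 1.63, 1.73 and 1.90 FPKM to 3.65, 3.49 and 3.66 (log2 difference 0.74 ± 0.12 SE, limma adjusted p = 0.00295).

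DLX1, a gene of forebrain interneurons, fell from 2.85, 1.49 and 2.27 FPKM to 0.0922, 0.477 and 0.122 (9.56-fold lower mean, log2 difference -1.37 ± 0.21 SE, limma adjusted p = 0.00279). Its cluster neighbour DLX2, under the level tested, went from 0.0800 to 0.246 FPKM in DMSO to 0.521 to 0.835 in LBH589. LHX8 and LHX6, both of forebrain neurons, fell by 0.64 and 0.82 on the log2 scale (adjusted p = 0.00600 and 0.00494). LHX8 was at 0.752 to 1.03 FPKM and then 0.160 to 0.306, and LHX6 at 3.0 to 4.08 and then 1.33 to 1.59, but the fall of LHX6 did not hold by its most abundant transcript (adjusted p = 0.328). LHX1 was at 4.17, 3.50 and 0.361 FPKM in DMSO and 1.10 to 1.52 in LBH589, and fell only without DMSO replicate 3 (log2 difference -1.07, adjusted p = 0.0046). LHX4 was listed at 0 in the DMSO libraries and at 0.628, 0.530 and 0.604 FPKM in LBH589, under the level tested. DLX2 and LHX4 were listed through LBH589 while under the level tested, so their direction was fixed in advance. DLX4, DLX5 and DLX6 were not called.

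POU genes were few: 3 of 5 tested rose (60%) and 1 fell (20%), against 27.2% and 21.6% of all tested genes. Shares of so few genes are coarse. POU4F2, a Brn3 factor of retinal ganglion cells, was listed at 0 in all 3 DMSO libraries and at 1.47, 1.59 and 1.45 FPKM in LBH589 (log2 difference 1.32 ± 0.10 SE, limma adjusted p = 0.000182). A value of exactly 0 can stand for an estimate that failed, so no fold is given. POU4F1, a Brn3 factor of sensory neurons that is also found in melanocytic cells, was at 6.46, 7.78 and 7.93 FPKM and then at 13.8, 13.7 and 16.2 (1.97-fold higher mean, log2 difference 0.89 ± 0.13 SE, limma adjusted p = 0.00187). POU3F2, known as BRN2 and studied in melanoma invasion, was at 1.5, 1.57 and 1.49 FPKM and at 2.80, 2.99 and 2.79 (log2 difference 0.62 ± 0.11 SE, limma adjusted p = 0.00548). In all 3 genes every LBH589 value lay above every DMSO value.

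POU3F3, a close relative of POU3F2, went from 6.01, 5.92 and 5.53 FPKM to 3.94, 3.71 and 4.01, a fall (log2 difference -0.48 ± 0.11 SE, limma adjusted p = 0.0130) that was lost with equal library sums (0.0555), with the replicate block (0.0582) and without LBH589 replicate 2 (0.0511). POU2F1 was at 1.96, 1.39 and 0.153 FPKM in DMSO and 0.0319, 3.37 and 2.45 in LBH589, with overlapping groups, and was not called. POU3F1 was under the level tested.

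**Figure D5:**
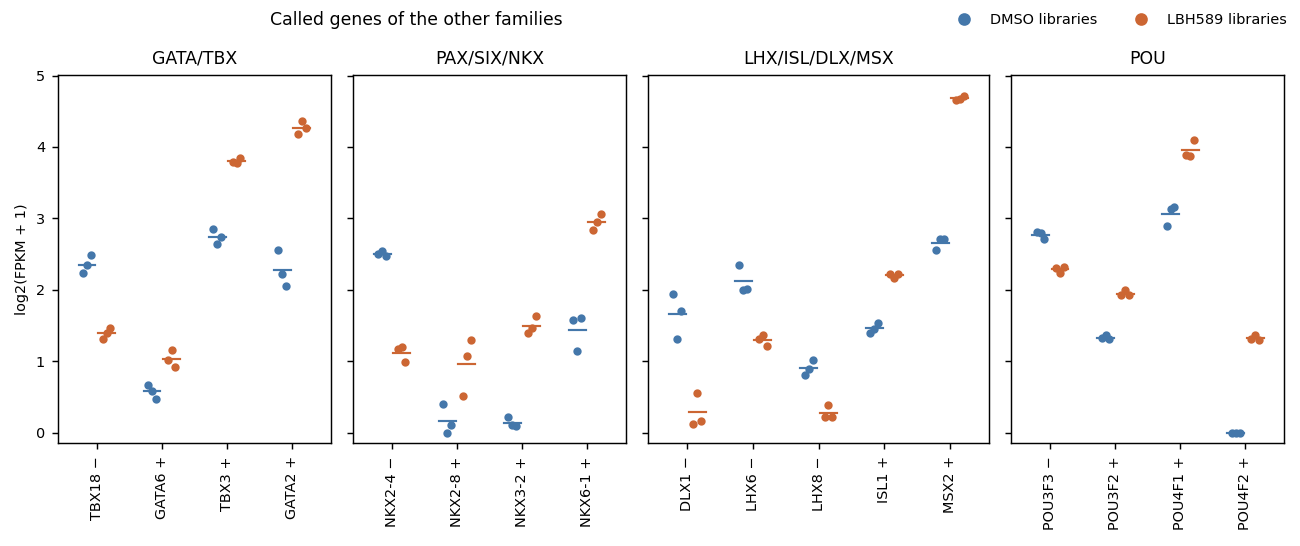
log2(FPKM + 1) in each library for called members of the remaining families, ordered within a panel from the largest fall to the largest rise; dots are libraries, bars group means, + a rise and − a fall. MSX2 and GATA2 reach the highest LBH589 values, and POU4F2 lies at 0 in the 3 DMSO libraries.

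The 3 genes left out by the rule all fell. SOX10, the central factor of the pigment lineage, went from 69.4 ± 18.3 to 0.688 ± 0.244 FPKM (SD, n = 3), PAX3 from 38.6 ± 4.05 to 24.8 ± 3.40, and FOXM1, a forkhead factor of dividing cells, from 14.6 ± 3.40 to 0.385 ± 0.244 (limma adjusted p = 2.84e-05, 0.0111 and 0.000106). SOX10 was thus far above its relatives SOX8 and SOX9 in DMSO and under SOX9 in LBH589, as FPKM values per length.

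Genes that work with these families were counted from 5 lists. Over all tested genes 27.2% rose and 21.6% fell, and the lists are read against these shares. Of 53 tested regulators of development outside the families, 19 rose (35.8%) and 13 fell (24.5%). Of 37 tested other homeobox genes, 3 rose (8.11%) and 11 fell (29.7%), or 7 and 8 with equal library sums, where 3730 of all 11520 tested genes rose and 2009 fell. Of 46 tested Polycomb, Trithorax and HOX locus regulators, 14 rose (30.4%) and 9 fell (19.6%), 18 and 7 with equal sums and 9 and 9 after quantile normalization. Quantile normalization gave 2889 rises and 2701 falls over all tested genes. Of 28 corepressors and cofactors 10 rose (35.7%) and 7 fell (25%), and of 16 genes of retinoic acid signalling 4 rose (25%) and 5 fell (31.2%). Apart from the low share of rises among the other homeobox genes, these shares lay within 10 percentage points of those of all tested genes. The medians of the log2 differences were 0.04, -0.15, 0.07, -0.06 and 0.02 in this order, against 0.08 for all tested genes.

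A few genes of these lists are named after their values were seen, for their known contacts with members. The Polycomb core genes EZH2, SUZ12 and EED were not called, with log2 differences of -0.06, 0.01 and 0.14, while BCOR, a subunit of a variant complex, fell from 7.07 ± 1.28 to 0.378 ± 0.0493 FPKM (SD, n = 3, limma adjusted p = 7.76e-05). EYA1, a cofactor of sine oculis factors, rose from 1.16 ± 0.326 to 21.7 ± 2.49 FPKM, and EYA4 fell from 21.6 ± 4.56 to 6.63 ± 0.673 (limma adjusted p = 4.06e-05 and 0.000712). DACH1, which binds EYA proteins, rose from 0.498 ± 0.12 to 4.10 ± 0.125 FPKM. LDB1 and LDB2, which join LIM homeodomain proteins into complexes, fell from 12.8 ± 2.22 to 6.5 ± 1.89 and from 9.36 ± 1.15 to 3.06 ± 0.160 FPKM (limma adjusted p = 0.0159 and 0.000423). PKNOX1, a TALE relative of MEIS, had means of 3.07 and 2.59 FPKM and was not called.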

How the data were processed

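The authors deposited FPKM, per the file headers, for 30624 transcripts in each of 6 libraries. The submitters' processing notes list Bowtie 0.12.2 and hg19 but not what they were used for. The quantification tool, the annotation and the strand setting were not given in the sources used here. Libraries came from 1 µg of Trizol-extracted total RNA with a TruSeq kit, per the labels' protocols. Names were found for 30504 transcripts (99.6%) in GENCODE 29, from which no coordinates were taken, and FPKM was summed per gene, which adds values divided by different transcript lengths. The 11520 genes whose mean reached 0.5 FPKM entered limma 3.58.1 as log2(FPKM + 1), with trend, robust moderation and treatment as the single term (statmod 1.5.0, R 4.3.3), Benjamini-Hochberg adjusted over all of them and called at adjusted p below 0.05. A difference on this scale understates the change of low genes. Promoter windows come from RefSeq (GRCh38.p14) by symbol.

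Members and lists were chosen with earlier results of these data known. The rule for named genes took, in each of 8 families, the tested members of smallest adjusted p, 6 at most, and the most abundant member (48 genes); other called members, and members whose call changed under an alternative, were added after their values were seen. As alternatives, each library was left out, the most abundant transcript replaced the sum, and the replicate number entered as a block. Libraries were scaled to equal sums or equal medians or quantile-normalized. The pseudocount was set to 0.1, the filter dropped or raised to 5 FPKM, trend and robust moderation dropped, and the threshold on adjusted p set to 0.01. Some genes that the rule or the lists take are counted but not reported here.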

Additional observations from a re-analysis of the deposited data

How the results depend on the processing

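Counts of members that rose and fell were 27 and 25 as reported. They stayed within 1.5 times of that under the alternatives except a mean of at least 5 FPKM. There 8 rose and 10 fell among fewer genes tested, beside 1844 and 1746 of all 6866 tested genes. Quantile normalization gave 23 and 27 members, where 2889 and 2701 of all 11520 tested genes rose and fell. Equal sums gave 27 and 24, beside 3730 and 2009 of all tested genes. The most abundant transcript gave 23 and 23, beside 2233 and 1753 of 11457 genes. In that setting the 68 of 101 members with 1 listed transcript keep their value. Of 32 members with several listed transcripts that were tested both ways, the sum called 14, and 9 of these kept the call. An adjusted p below 0.01 gave 22 and 20. Leaving out a library gave 24 to 31 rises (31 without DMSO replicate 1) and 23 to 26 falls. Over all tested genes it gave 2577 to 3243 rises and 2047 to 2418 falls. Equal sums moved the median log2 difference of all tested genes from 0.08 to 0.22 and that of members from 0.13 to 0.28. Of the 52 called members, 46 kept their call whichever library was left out (exceptions FOXN2, FOXP1, GATA6, HOXB13, NKX2-8 and POU3F3) and 47 under all 3 scalings (exceptions FOXA1, GATA6, HOXB13, NKX2-8 and POU3F3). Same-numbered DMSO and LBH589 libraries had correlations of their deviations of -0.104, 0.0215 and -0.0350. No deviation shared by same-numbered libraries was thus visible, but these values cannot show whether the samples were handled as pairs. With the replicate block 24 members rose and 24 fell, and 2617 and 2172 of all genes in place of 3132 and 2485. Of 974 alternative values for 68 members, 925 kept direction and side of the threshold, 30 lost the call and 12 gained it. Members not called in either fit count among the 925, and settings where a member was not tested are left out. Other filters, dropping trend and robust moderation, and the replicate block leave the difference itself unchanged. So does the most abundant transcript for members with 1 listed transcript. In such settings direction could not turn. Direction turned in 7 of the 974 values. By the most abundant transcript these were PBX3 (-0.31), SOX5 (-0.77), FOXP1 (0.87) and GATA3 (-0.43), where the sum adds other transcripts. The others were PBX3 without LBH589 replicate 1 (-0.25, and -0.25 to 0.55 over the 6 left-out libraries) and POU2F1 without DMSO replicate 3 (-0.091) or LBH589 replicate 2 (-0.093; range -0.093 to 0.95), and the cause was not tested. Depth is unknown, so what it limits cannot be stated for members under 1 FPKM.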
